A study of Arabidopsis thaliana with 12 samples.

Results

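The 4 nicotianamine synthase genes of Arabidopsis and 6 genes for zinc or other metal transporters were examined, 10 of the 23739 genes in the read-count table of 12 seedling libraries. They were taken by locus: NAS1 (AT5G04950), NAS2 (AT5G56080), NAS3 (AT1G09240), NAS4 (AT1G56430), MTP3 (also called MTPA2, AT3G58810), IREG2 (AT5G03570), HMA3 (AT4G30120), ZIP1 (AT3G12750), ZIP4 (AT1G10970) and ZIP9 (AT4G33020). All 10 had enough counts to be tested, as did 20439 genes in all. The study compared the double mutant ate1-2 ate2-1 (a1a2), in the Col-0 background, with wild-type Col-0, to examine the part of the Arg/N-degron pathway in pattern-triggered immunity. ATE1 and ATE2 encode the arginyl transferases of that pathway, which mark proteins for degradation.

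The groups were a1a2 with 1 µM flg22, a1a2 with water (mock), Col-0 with 1 µM flg22 and Col-0 with water, each treated for 1 h and harvested at 10 days of age. All groups shared growth on sucrose-containing MS medium in continuous light and a move into liquid medium on the day before treatment. The peptide flg22 is a stretch of bacterial flagellin that plants perceive at the cell surface. Each group had 3 biological replicates, and each replicate drew on 50 whole seedlings per genotype and treatment. The mutant is a single combination of alleles, and a library averages over root and shoot. In such bulk samples, fewer cells of a type and less RNA per cell cannot be told apart.

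Nicotianamine is a small metal chelator made by nicotianamine synthases from S-adenosylmethionine, and it keeps iron, zinc, copper and nickel mobile in the cytosol and the phloem. MTP3, IREG2 and HMA3 are transporters of the vacuolar membrane that move zinc, nickel or cobalt, and zinc or cadmium into the root vacuole, and MTP3 and IREG2 are known to be induced with the iron uptake machinery when iron is short. The HMA3 allele of Col-0 is known to encode a truncated protein. ZIP proteins carry zinc and related metals towards the cytosol, and several of their genes are switched on under zinc deficiency by the transcription factors bZIP19 and bZIP23.

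The NAS genes are intronless and similar in sequence, so the genes were compared base by base. In build TAIR10.1, NAS2 lies at chr5:22711141-22712441 and NAS3 at chr1:2984829-2986231, while the genes of the transporters MTP3 and ZIP9 lie at chr3:21749966-21752141 and chr4:15932420-15934762. Over the coding sequence, NAS1 and NAS2 were 82.8% identical, NAS3 and NAS4 were 79.0% identical, and the other pairs were 66.6% to 68.4% identical. The longest run without a difference was 49 bases between NAS1 and NAS2 and 32 bases between NAS3 and NAS4, both shorter than 1 read of the study. The following stretches show these runs in capitals with 25 coding bases on either side, read on the coding strand from RefSeq, build TAIR10.1. They lie at chr5:1458575-1458673 (NAS1, minus strand), chr5:22712098-22712196 (NAS2, minus strand), chr1:2985042-2985123 (NAS3, plus strand) and chr1:21137118-21137199 (NAS4, plus strand), all in the single exon of the gene.
NAS1: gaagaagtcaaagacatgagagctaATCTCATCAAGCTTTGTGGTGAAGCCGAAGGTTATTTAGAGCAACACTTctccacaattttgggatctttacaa
NAS2: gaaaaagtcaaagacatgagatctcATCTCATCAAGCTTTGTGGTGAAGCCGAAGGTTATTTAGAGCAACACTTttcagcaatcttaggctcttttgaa
NAS3: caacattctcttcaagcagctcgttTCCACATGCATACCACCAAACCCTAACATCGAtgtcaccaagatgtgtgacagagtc
NAS4: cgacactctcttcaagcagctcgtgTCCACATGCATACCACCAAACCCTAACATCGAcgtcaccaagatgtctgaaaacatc

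All entries of the 4 NAS genes were whole numbers in the 12 libraries, although the table is one of estimated counts in which 7.50% of entries were not whole. Among the 10 genes, only ZIP1 had entries that were not whole, in 2 libraries. How the counting treated reads that match more than 1 gene was not given in the sources used here. IREG2 and ZIP1 overlap a gene on the opposite strand (AT5G03580 and AT3G12740), and without knowledge of strand-specific counting, reads from the overlaps cannot be assigned.

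The promoters were searched for the core of the zinc deficiency response element, the palindrome TGTCGACA that bZIP19 and bZIP23 bind. Within 500 bases upstream of the annotated gene start, 138 of 27443 protein-coding genes (0.503%) held it, and of the 10 genes only ZIP4 did, 39 bases upstream. Only the exact word TGTCGACA was searched, so variants of the element were not counted. The stretches below are the last 80 bases before the gene start of ZIP4 (chr1:3667140-3667219, minus strand) and of IRT3 (chr1:22447300-22447379, minus strand), another ZIP family gene of the zinc deficiency response, with the core in capitals. For ZIP9, the transporter gene that rose with flg22, the 120 bases at chr4:15934943-15935062 (minus strand) are shown with a W-box, the element bound by WRKY transcription factors in the immune response, in capitals. The W-box was searched as TTGACC or TTGACT on either strand. It occurred within 500 bases upstream in 45.2% of protein-coding genes and in 7 of the 10 genes, all but NAS1, NAS2 and NAS4. These are matches of letters only.
ZIP4: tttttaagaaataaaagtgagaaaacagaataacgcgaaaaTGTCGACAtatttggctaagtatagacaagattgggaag
IRT3: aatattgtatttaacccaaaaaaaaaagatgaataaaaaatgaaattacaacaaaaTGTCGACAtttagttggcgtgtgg
ZIP9: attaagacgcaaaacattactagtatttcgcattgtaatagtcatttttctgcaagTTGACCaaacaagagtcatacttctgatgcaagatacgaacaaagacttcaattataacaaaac

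The libraries held 20285662 to 22433536 counts each. Levels are in CPM (counts per 1e+06 counts of the library, scaled by TMM), with TMM factors of 0.855 to 1.157. A gene was called differentially expressed at an adjusted p under 0.05 (edgeR, adjusted over all tested genes) and a change of more than 1.5-fold, the thresholds of the study. The genotype labels held: ATE1 was at 2.19 to 4.22 CPM in a1a2, against 20.7 to 28.4 CPM in Col-0, and ATE2 at 0.148 to 0.513 CPM in a1a2, against 4.68 to 6.73 CPM in Col-0. Libraries of the same replicate number deviated together in all 4 groups, so a second fit took the replicate number as a block, and its values are given where they change a call. FRK1, an early flg22 response gene, stood at 9.95 CPM in a1a2 mock replicate 1 and 9.26 CPM in Col-0 mock replicate 1, above the 0.263 to 2.80 CPM of the other mock libraries. Results that rest on replicate 1 are therefore also given without it. After flg22, FRK1 had 5.67 to 37.2 CPM in a1a2 and 11.4 to 89.1 CPM in Col-0, so the treatments overlapped in a1a2. It was higher after flg22 in all 6 pairs of the same genotype and replicate number, as for 25.5% of tested genes. FRK1 was called higher after flg22 in both genotypes with the block, and in neither without it.

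Per kilobase of exon, the scale on which genes can be compared, levels in mock-treated Col-0 spanned a wide range. NAS1 was highest at 113 ± 34.1 CPM per kb, followed by NAS4 at 24.3 ± 13.6, MTP3 at 14.7 ± 6.82, NAS3 at 6.77 ± 2.66 and IREG2 at 3.89 ± 1.12 CPM per kb (SD, n = 3). ZIP1 at 2.82 ± 0.534, NAS2 at 2.55 ± 0.184, ZIP4 at 2.04 ± 0.253, ZIP9 at 0.848 ± 0.129 and HMA3 at 0.668 ± 0.259 CPM per kb formed the lower part (SD, n = 3). NAS4 and MTP3, IREG2 and ZIP1, ZIP1 and NAS2, and ZIP9 and HMA3 are neighbours in this order whose means lay closer than the larger of their SDs. The plot of the 10 genes by library shows how these levels varied with genotype, treatment and replicate number.

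**Figure D1:**
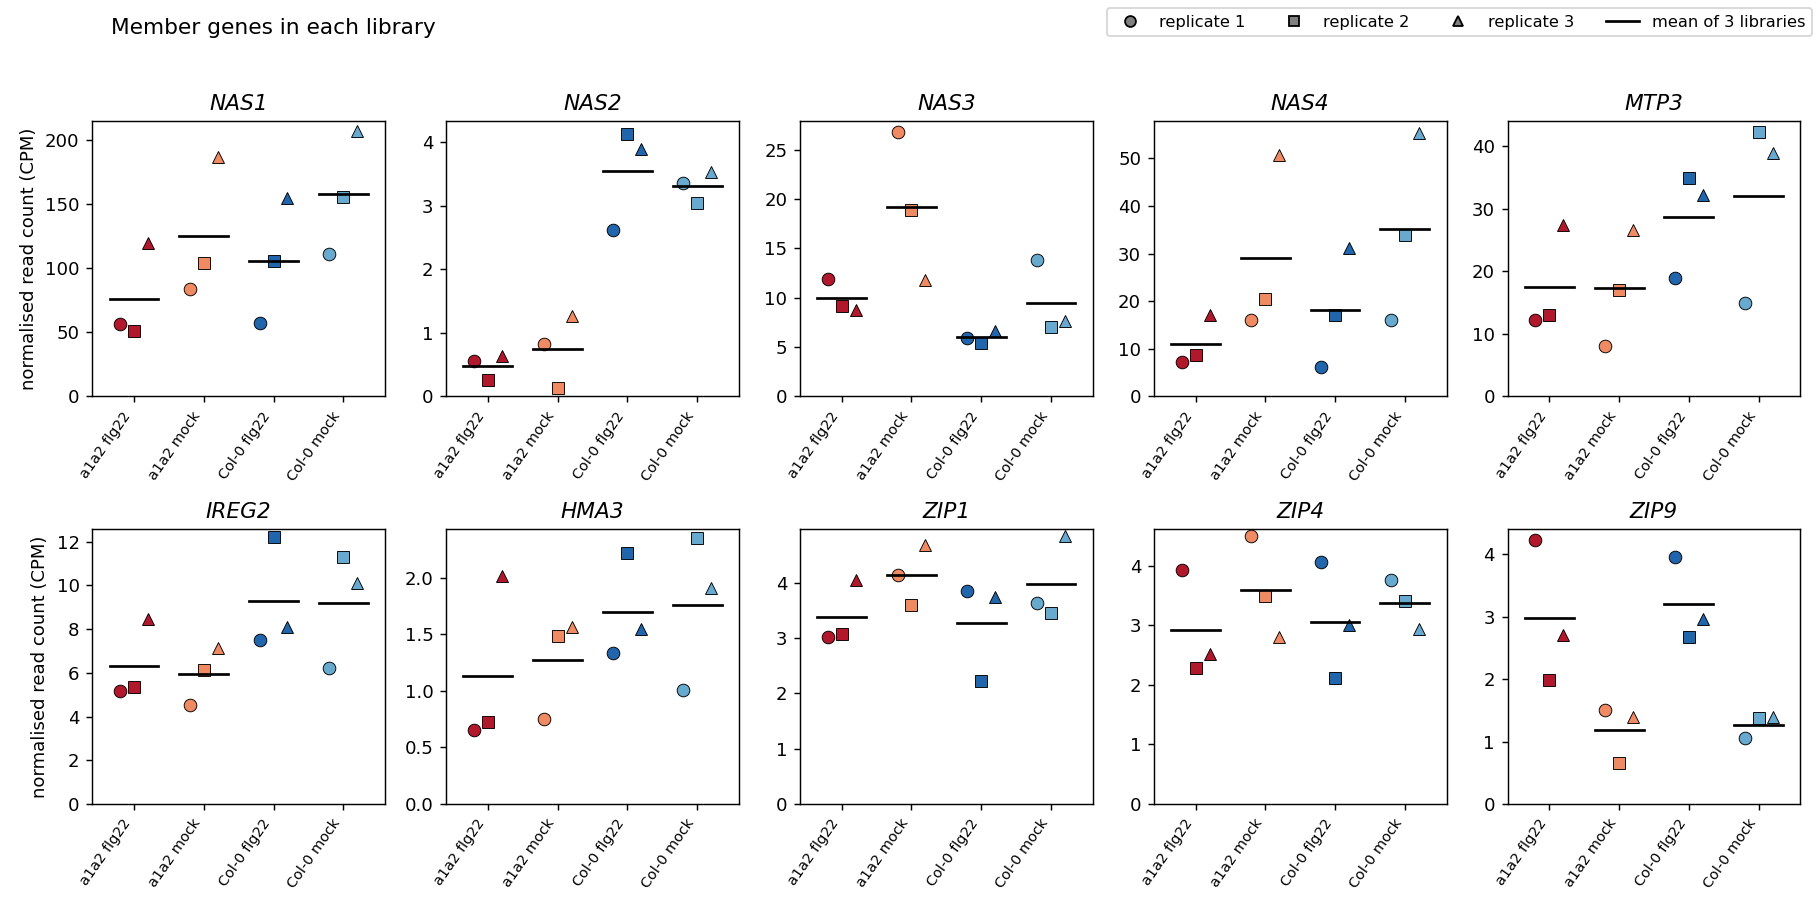
Normalised read counts (CPM, linear axes from 0) of the 10 genes in each of the 12 libraries, with groups from left to right a1a2 flg22, a1a2 mock, Col-0 flg22 and Col-0 mock. Symbols mark the replicate number and bars the mean of 3 libraries. For NAS2, all a1a2 libraries lie below all Col-0 libraries, as for 0.377% of tested genes. ZIP9 is higher after flg22 in all 6 pairs of the same genotype and replicate number, as for 25.5% of tested genes.

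In the comparison of genotypes, NAS2 was called lower in a1a2 than in Col-0, and with the replicate block MTP3 was also called lower and NAS3 higher. Averaged over both treatments, 1 of the 10 genes was called in the fit without the block (NAS2, lower), against 0.460% of all tested genes in either direction and 0.210% lower. With the replicate block, 3 of 10 were called (NAS2 and MTP3 lower, NAS3 higher), against 2.27% of all tested genes, 1.66% lower and 0.607% higher. The median log2 fold change of the 10 genes was -0.45 without and -0.43 with the block, against -0.01 for all tested genes in both fits.

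NAS2, one of the synthase genes known to respond to zinc supply, gave the largest genotype difference of the 10. Its level was 0.554, 0.261 and 0.641 CPM in a1a2 flg22 (replicates 1, 2 and 3) and 0.829, 0.131 and 1.27 CPM in a1a2 mock. In Col-0 it was 2.62, 4.13 and 3.89 CPM after flg22 and 3.36, 3.05 and 3.53 CPM in mock. These values rest on few reads, 3 to 29 counts per a1a2 library and 51 to 83 counts per Col-0 library. All 6 a1a2 libraries lay below all 6 Col-0 libraries, which was the case for 0.377% of the tested genes. Averaged over both treatments, NAS2 fell by 2.50 on the log2 scale (SE 0.36, adjusted p 0.00964), a level 5.64-fold lower in a1a2. In the fits that left out 1 library at a time, this log2 fold change ranged from -2.79 to -2.25 and its adjusted p from 0.00190 to 0.0360. Without all 4 libraries of replicate 1, 2 or 3 it was -2.67, -2.08 and -2.86, and the call was lost in each of these smaller sets (adjusted p 0.148, 0.0804 and 0.0657) but held in each with the block (adjusted p 0.00835, 0.00221 and 0.0137).

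Within a single treatment, the NAS2 difference passed the thresholds only in some fits. The log2 fold change of a1a2 over Col-0 was -2.85 ± 0.53 after flg22 (adjusted p 0.101) and -2.15 ± 0.49 in mock (adjusted p 0.249; SE in both). With the block it was -2.87 (adjusted p 0.0126) and -2.18 (adjusted p 0.0254), and DESeq2 without the block gave adjusted p-values of 3.92e-05 and 0.00448. The call after flg22 was also made without the block once a1a2 mock replicate 2, the library with 3 counts, was left out (adjusted p 0.00739). With the block, both calls were lost without replicate 1 (adjusted p 0.0503 after flg22 and 0.0873 in mock) and without replicate 3 (adjusted p 0.107 and 0.132).

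NAS3, a synthase gene with a known role in leaves, was the only one of the 10 that stood higher in a1a2 in all 6 pairs of libraries with the same treatment and replicate number, a pattern of 6.58% of the tested genes. It had 11.9, 9.18 and 8.73 CPM in a1a2 flg22, against 5.96, 5.42 and 6.61 CPM in Col-0 flg22. In mock it had 26.8, 18.9 and 11.8 CPM in a1a2, against 13.8, 7.04 and 7.69 CPM in Col-0, and these groups overlapped. The log2 fold change averaged over both treatments was 0.87 ± 0.22 (SE) without a call (adjusted p 0.160) and 0.85 ± 0.15 with the block, where NAS3 was called (adjusted p 0.00868). DESeq2 also called it without the block (adjusted p 0.0151), as did edgeR once Col-0 mock replicate 1 was left out (1.06, adjusted p 0.0494). Within mock, NAS3 was at 1.01 ± 0.30 (SE, adjusted p 0.677) and was called with the block (adjusted p 0.0387). With the block and without replicate 2 both calls were lost, at 0.74 (adjusted p 0.148) and 0.81 (adjusted p 0.420).

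NAS1 and NAS4 were the more abundant synthase genes in mock-treated Col-0, and NAS4 is known to be induced under iron deficiency. NAS1 lay lower in a1a2 in all 6 pairs, as did 8.30% of tested genes, and NAS4 in 5 of 6. The flg22 replicate 1 pair was nearly equal for NAS1 (56.9 CPM in a1a2 against 57.1 CPM in Col-0). So was the mock replicate 1 pair for NAS4 (16.0 against 16.1 CPM). The averaged log2 fold changes of NAS1 (-0.41 ± 0.31, SE, adjusted p 0.744) and NAS4 (-0.50 ± 0.45, SE, adjusted p 0.803) were not called, nor with the block (-0.43, adjusted p 0.0545 and -0.44, adjusted p 0.100). With the block and without replicate 1, NAS4 was called lower, averaged over both treatments (-0.66, adjusted p 0.00378) and after flg22 (-0.91, adjusted p 0.0151), but not without replicate 2 or 3 (averaged, -0.24, adjusted p 0.617 and -0.40, adjusted p 0.440). Their values per library are given with the response to flg22.

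The heat map of a1a2 over Col-0 within each replicate number shows the spread behind these values.

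**Figure D2:**
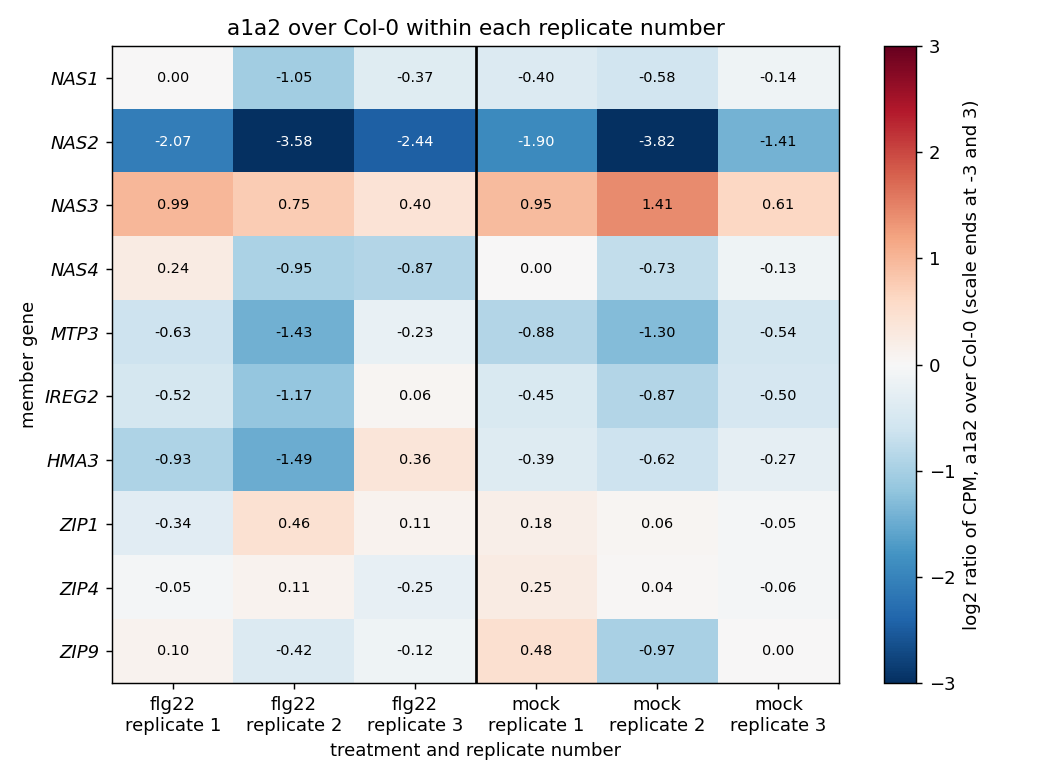
Log2 ratio of CPM, a1a2 over Col-0, for the 10 genes (rows) within each treatment and replicate number (columns), with blue for lower and red for higher in a1a2. NAS2 is lower in all 6 pairs (-3.82 to -1.41), NAS3 higher in all 6 (0.40 to 1.41), and MTP3 lower in all 6 (-1.43 to -0.23).

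The 3 vacuolar transporter genes lay lower in a1a2 in most pairs, and for each of them the genotypes overlapped. MTP3, which moves zinc into the vacuole, had 12.2, 13.0 and 27.5 CPM in a1a2 flg22, against 18.9, 35.0 and 32.3 CPM in Col-0 flg22. In mock it had 8.13, 17.1 and 26.7 CPM in a1a2, against 15.0, 42.3 and 38.9 CPM in Col-0. The genotypes overlapped in both treatments, yet a1a2 was lower in all 6 pairs. The averaged log2 fold change was -0.80 ± 0.35 (SE, adjusted p 0.538) and was called with the block at -0.82 ± 0.17 (SE, adjusted p 0.0213). That call was lost without any 1 replicate number, and the value was nearest to 0 without replicate 2 (-0.56, adjusted p 0.162).

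IREG2, which loads nickel and cobalt into the vacuole, had 5.19, 5.37 and 8.44 CPM in a1a2 flg22, against 7.50, 12.2 and 8.11 CPM in Col-0 flg22. In mock it had 4.54, 6.13 and 7.13 CPM in a1a2, against 6.23, 11.3 and 10.1 CPM in Col-0. Its averaged log2 fold change was -0.59 ± 0.20 (SE, adjusted p 0.380). With the block it was -0.58 (adjusted p 0.0299), a change that did not exceed 1.5-fold, so IREG2 was not called. With the block and without replicate 3 it was called lower (-0.77, adjusted p 0.0348), but not without replicate 1 (-0.62, adjusted p 0.0772) or replicate 2 (-0.36, adjusted p 0.370). The genotypes overlapped in both treatments, and lower values in a1a2 were seen in 5 of 6 pairs.

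HMA3 was low, at 0.655 to 2.02 CPM in a1a2 flg22 and 0.750 to 1.57 CPM in a1a2 mock, against 1.34 to 2.22 CPM in Col-0 flg22 and 1.01 to 2.35 CPM in Col-0 mock. The groups overlapped in both treatments. Its averaged log2 fold change was -0.52 ± 0.33 (SE, adjusted p 0.686), and -0.54 with the block (adjusted p 0.215).

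Among ZIP1, ZIP4 and ZIP9, the zinc transporter genes of the ZIP family, genotype differences were small. ZIP1 had 3.02 to 4.05 CPM in a1a2 flg22 and 3.59 to 4.68 CPM in a1a2 mock, against 2.22 to 3.85 CPM in Col-0 flg22 and 3.45 to 4.84 CPM in Col-0 mock. ZIP4 had 2.29 to 3.93 CPM in a1a2 flg22 and 2.80 to 4.50 CPM in a1a2 mock, against 2.11 to 4.06 CPM in Col-0 flg22 and 2.93 to 3.76 CPM in Col-0 mock. The averaged log2 fold changes were 0.05 ± 0.16 for ZIP1 (adjusted p 0.953), 0.01 ± 0.20 for ZIP4 (adjusted p 0.993) and -0.10 ± 0.24 for ZIP9 (adjusted p 0.937; SE in each). For these 3 genes, the sign changed in some of the fits that left out libraries.

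Within single treatments, 0 of the 10 genes were called without the block, after flg22 (0.137% of all tested genes called) and in mock (0.166%). By edgeR, 2 of 10 after flg22 and 3 of 10 in mock had an unadjusted p under 0.05, against 4.65% and 4.60% of all tested genes. DESeq2 called 1 gene, NAS2, in each treatment. Over all genes it called 45 higher and 37 lower after flg22, and 60 higher and 43 lower in mock. With the block, 1 of 10 was called after flg22 (NAS2) and 2 of 10 in mock (NAS2 and NAS3), against 0.827% and 0.959% of all tested genes. By direction, 0.519% were lower after flg22, and 0.514% were lower and 0.445% higher in mock.

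Genes of the root were examined beside these results, since NAS2, MTP3, IREG2 and HMA3 are known mainly from roots. The summed level of 10 root markers was 305 to 471 CPM in a1a2 flg22 and 323 to 387 CPM in a1a2 mock, against 378 to 457 CPM in Col-0 flg22 and 287 to 458 CPM in Col-0 mock, with none of the markers below the filter. Averaged over treatments, 0 of 10 root markers were called without the block, against 0.460% of all tested genes. With the block, 1 of 10 was called (TIP2;3, a tonoplast aquaporin gene, -0.78, adjusted p 0.00451), against 2.27%. In that fit 5 root markers were positive and 5 negative, with a median log2 fold change of 0.04. PHO1 (0.48, adjusted p 0.0512) and NRT2.1 (0.67, adjusted p 0.0670) lay higher without a call. Of 8 shoot markers, 0 were called in either fit, with 7 positive and 1 negative. The part of root content in the NAS2 and MTP3 results was not tested.

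After flg22, ZIP9 was higher in both genotypes, while of the synthase genes NAS3 was called lower in a1a2 without the block, and NAS1, NAS3 and NAS4 in both genotypes only with it. In a1a2, 2 of 10 genes were called (ZIP9 higher, NAS3 lower), against 21.2% of all tested genes, 13.9% higher and 7.29% lower. In Col-0, 1 of 10 was called (ZIP9 higher), against 21.0% in either direction and 13.9% higher. With the block, the same 4 genes were called in each genotype (ZIP9 higher, NAS1, NAS3 and NAS4 lower), against 24.8% in a1a2 (15.5% higher, 9.37% lower) and 24.6% in Col-0 (15.3% higher, 9.27% lower). The counts without the block, 1 and 2 of 10, were at or below this background. Those with the block, 4 of 10, were the same genes in both genotypes, and their difference from the background was not tested. With only 10 genes, these counts do not show a trait of the set.

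ZIP9, a zinc transporter gene of the zinc deficiency response, had 4.23, 1.98 and 2.71 CPM in a1a2 flg22, against 1.5, 0.657 and 1.40 CPM in a1a2 mock. In Col-0 it had 3.96, 2.68 and 2.96 CPM after flg22, against 1.05, 1.37 and 1.40 CPM in mock. These values rest on few reads, 15 to 38 counts per mock library and 38 to 84 counts per flg22 library. The flg22 level was above mock in all 6 pairs, as for 25.5% of tested genes. ZIP9 rose by 1.32 ± 0.35 in a1a2 (SE, adjusted p 0.0140) and by 1.33 ± 0.34 in Col-0 (SE, adjusted p 0.0131) on the log2 scale, 2.50-fold and 2.51-fold. The call in a1a2 was lost without a1a2 flg22 replicate 1 (0.94, adjusted p 0.0826), and that in Col-0 without Col-0 flg22 replicate 1 (1.1, adjusted p 0.0649) or Col-0 mock replicate 1 (1.16, adjusted p 0.0584). Without all 4 libraries of replicate 1 the log2 fold changes were 1.18 (adjusted p 0.0735) in a1a2 and 1.02 (adjusted p 0.111) in Col-0. The call was also lost in a1a2 without all libraries of replicate 2 or 3 (adjusted p 0.0588 and 0.0559) and in Col-0 without those of replicate 3 (adjusted p 0.0541). With the block, both were called in all 3 sets that left out 1 replicate number, with adjusted p-values of 0.00694 to 0.0194.

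NAS4 had 7.26, 8.76 and 17.0 CPM in a1a2 flg22, against 16.0, 20.4 and 50.6 CPM in a1a2 mock, and 6.12, 17.0 and 31.1 CPM in Col-0 flg22, against 16.1, 33.9 and 55.3 CPM in Col-0 mock. Replicate 1 was the lowest and replicate 3 the highest library in all 4 groups, and the replicate number term passed the test for NAS4 (adjusted p 0.000105). Flg22 libraries lay below the mock library of the same genotype and replicate number in all 6 pairs, as did 24.4% of tested genes. The log2 fold change was -1.40 ± 0.64 in a1a2 (SE, adjusted p 0.140) and -0.95 ± 0.63 in Col-0 (SE, adjusted p 0.311). With the block, NAS4 fell by 1.34 in a1a2 (SE 0.20, adjusted p 0.000273) and by 1.02 in Col-0 (SE 0.19, adjusted p 0.00140), and these calls were made in all 3 sets without 1 replicate number.

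NAS1 had 56.9, 51.4 and 120 CPM in a1a2 flg22, against 84.2, 104 and 187 CPM in a1a2 mock, and 57.1, 106 and 155 CPM in Col-0 flg22, against 111, 156 and 207 CPM in Col-0 mock. As with NAS4, groups overlapped and all 6 pairs were lower after flg22. The log2 fold changes of -0.72 in a1a2 (adjusted p 0.276) and -0.57 in Col-0 (adjusted p 0.391) were not called. With the block, NAS1 fell by 0.72 in a1a2 (SE 0.16, adjusted p 0.00371) and by 0.63 in Col-0 (SE 0.16, adjusted p 0.00789). The Col-0 call was lost without replicate 1 (-0.49, adjusted p 0.0879).

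For NAS3, whose values are given above, flg22 libraries were lower than mock in all 6 pairs. The treatments overlapped in a1a2. NAS3 fell by 0.95 in a1a2 (SE 0.31, adjusted p 0.0385) and by 0.91 with the block (adjusted p 0.00367). The call in a1a2 without the block was lost in 5 of the fits without 1 library, and the value was nearest to 0 without a1a2 mock replicate 1 (-0.66, adjusted p 0.145). The other 4 were a1a2 flg22 replicates 2 and 3, a1a2 mock replicate 2 and Col-0 flg22 replicate 2, with adjusted p-values of 0.113, 0.108, 0.0803 and 0.0520. It was also lost without all 4 libraries of replicate 1 (-0.78, adjusted p 0.0590) or of replicate 2 (-0.91, adjusted p 0.249). With the block it held without each replicate number (adjusted p 0.00114 to 0.0365). In Col-0, NAS3 was at -0.67 ± 0.31 (SE, adjusted p 0.148) and was called with the block (-0.61, adjusted p 0.0459), though not without replicate 1 (-0.29, adjusted p 0.396) or replicate 2 (-0.70, adjusted p 0.0930).

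NAS2, MTP3, IREG2, HMA3, ZIP1 and ZIP4 were not called after flg22 in either genotype or fit. Their log2 fold changes without the block ran from -0.60 (NAS2, adjusted p 0.508) to 0.10 (IREG2, adjusted p 0.857) in a1a2, and from -0.28 (ZIP1, adjusted p 0.432) to 0.10 (NAS2, adjusted p 0.907) in Col-0. The interaction (the flg22 response of a1a2 minus that of Col-0) was called for 0 of the 10 genes and for 0% of all tested genes in both edgeR fits. Its log2 values ranged from -0.70 (NAS2, SE 0.73) to 0.18 (MTP3, SE 0.70), and 0 of 10 genes had an unadjusted p under 0.05 in either fit, against 0.920% of all tested genes without and 2.11% with the block. DESeq2 called 0 of 10 with or without the block. The plot of fold changes sets the estimates of the fits beside each other.

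**Figure D3:**
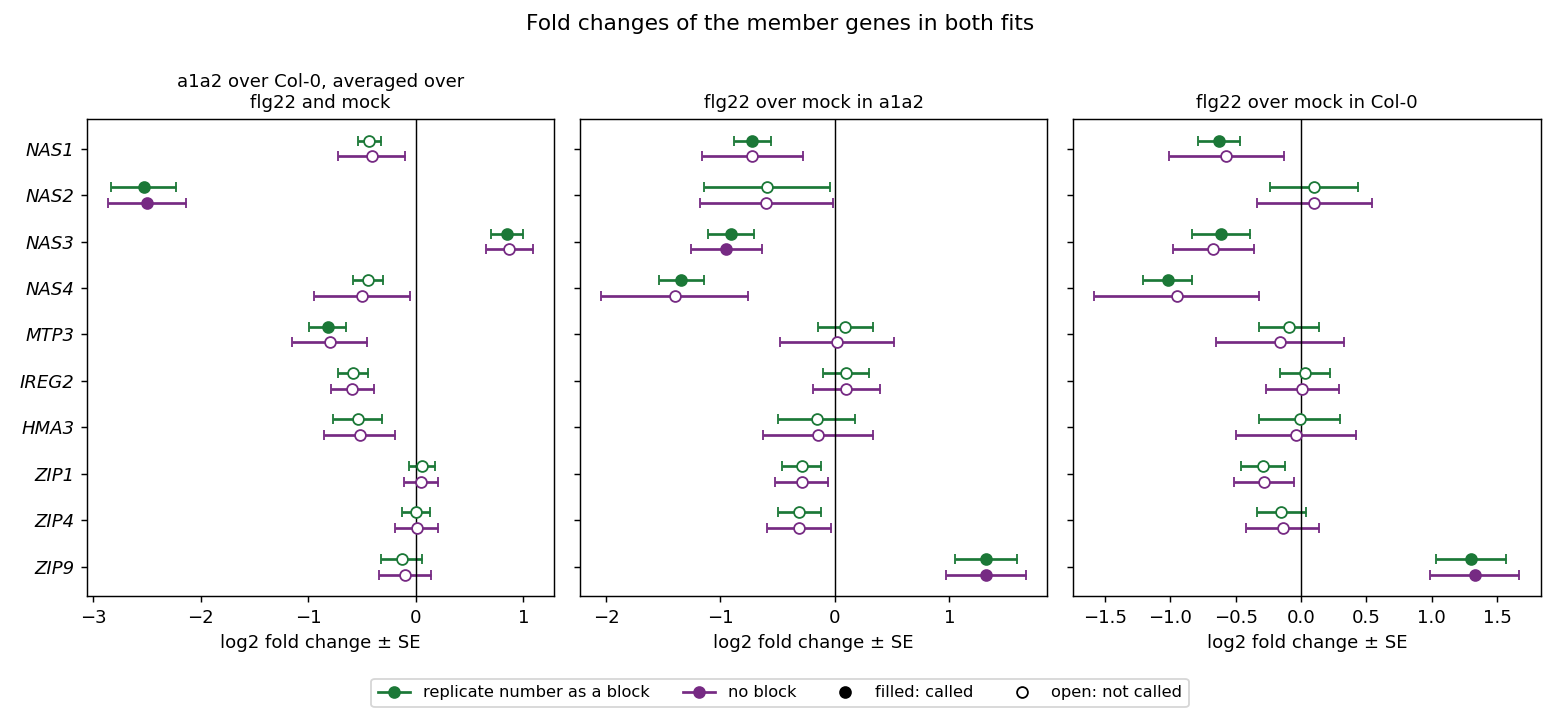
Log2 fold changes (points) with their SE (bars) of the 10 genes for a1a2 over Col-0 averaged over both treatments, and for flg22 over mock in a1a2 and in Col-0. Green points are from the fit with the replicate number as a block and purple points from the fit without it, and filled points were called. The estimates hardly move between the fits, while the SE of NAS4 after flg22 in a1a2 is 0.20 with the block and 0.64 without.

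The replicate number itself was a measurable source of variation in these genes. Its term passed an adjusted p of 0.05 for 7 of the 10 genes (NAS1, NAS3, NAS4, MTP3, IREG2, HMA3 and ZIP4), against 30.7% of all tested genes. NAS2 (adjusted p 0.466), ZIP1 (0.0564) and ZIP9 (0.134) did not pass. What the replicate numbers stand for beyond a biological replicate was not given in the sources used here.

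Other genes of zinc supply were examined from a list of the zinc deficiency response, of which 9 genes were not among the 10. Of these, 6 could be tested. Averaged over both treatments, 0 were called in a1a2 over Col-0 without the block and 1 with it, ZIP3, another zinc transporter gene. The shares of all tested genes were 0.460% and 2.27%. ZIP3 had 14.5 to 22.3 CPM in a1a2 flg22 and 11.9 to 14.7 CPM in a1a2 mock, against 6.34 to 11.6 CPM in Col-0 flg22 and 5.49 to 9.98 CPM in Col-0 mock. All a1a2 libraries lay above all Col-0 libraries, as for 0.382% of tested genes, and its log2 fold change was 0.84 without (adjusted p 0.0949) and 0.86 with the block (adjusted p 0.000448). BZIP19 (-0.01, adjusted p 0.985), BZIP23 (0.19, adjusted p 0.639) and IRT3 (0.10, adjusted p 0.937) were not called in either fit. After flg22, ZIP5, a relative of ZIP3, was called higher in a1a2 (1.72, adjusted p 0.0308) and in Col-0 (1.68, adjusted p 0.0341), though not under scaling to library size only (adjusted p 0.0622 and 0.0655). Without the block, 4 single libraries in each genotype also carried the ZIP5 call, replicates 1 and 2 after flg22 and replicates 2 and 3 in mock (adjusted p 0.0632 to 0.127 without one of them in a1a2, and 0.0584 to 0.175 in Col-0). With the block, ZIP5 was called at 1.80 in a1a2 (adjusted p 2.03e-07) and 1.72 in Col-0 (adjusted p 3.76e-07). HMA2, which exports zinc to the xylem, was called lower after flg22 with the block (-0.81, adjusted p 0.0122 in a1a2 and -0.71, adjusted p 0.0315 in Col-0) but not without it (adjusted p 0.0524 and 0.107).

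Of 6 tested ZIP family genes outside these lists, 0 were called in a1a2 over Col-0 averaged over both treatments without the block. With it, 3 were lower, ZIP7 (-0.96, adjusted p 0.0113), IRT1 and IRT2 (-0.67, adjusted p 0.0385). IRT1 and IRT2 are counted again among the iron uptake genes under FIT below. Of all tested genes, 0.460% were called without and 2.27% with the block (1.66% lower). Of 25 other metal transporter genes, 0 were called without the block and 1 was lower with it, MTP8, a manganese and iron transporter gene (-1.50, adjusted p 0.00349).

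In the list for nicotianamine supply and transport, 3 of 9 genes were called after flg22 in each genotype and fit, beside the 21.0% to 24.8% of all tested genes given above. MAT4, an S-adenosylmethionine synthase gene, was higher (0.79 in a1a2 and 0.90 in Col-0), as was YSL3 (1.20 and 1.31), and YSL1 was lower (-1.17 and -1.10). YSL1 and YSL3 encode transporters of metal complexes with nicotianamine. Adjusted p-values of these 6 changes were 8.81e-06 to 0.00739. Under scaling to library size only, MAT4 in a1a2 was at 0.53 (adjusted p 0.0124), under the 1.5-fold threshold, and without replicate 2 in any group it was at 0.65 (adjusted p 0.0838). In a1a2 over Col-0, averaged, 0 of 9 were called in either fit.

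The iron uptake genes under the transcription factor FIT, several of which are known to be co-regulated with MTP3 and IREG2, lay lower in a1a2. All 11 had a negative averaged log2 fold change, with a median of -0.93 without and -0.99 with the block, against -0.01 for all genes, and 0 of 11 were called without and 9 of 11 with the block, beside 0.460% and 2.27% of all tested genes. IRT1, the main iron importer of the root, was at -0.99 with the block (adjusted p 0.00606), while FIT itself was at -0.57 (adjusted p 0.0595). Of the 13 iron status genes, 6 were lower and 1 was higher with the block, and 1 was lower without it. Some of these genes were known to move in these libraries when the list was written. The plot of gene lists shows the 10 genes next to them.

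**Figure D4:**
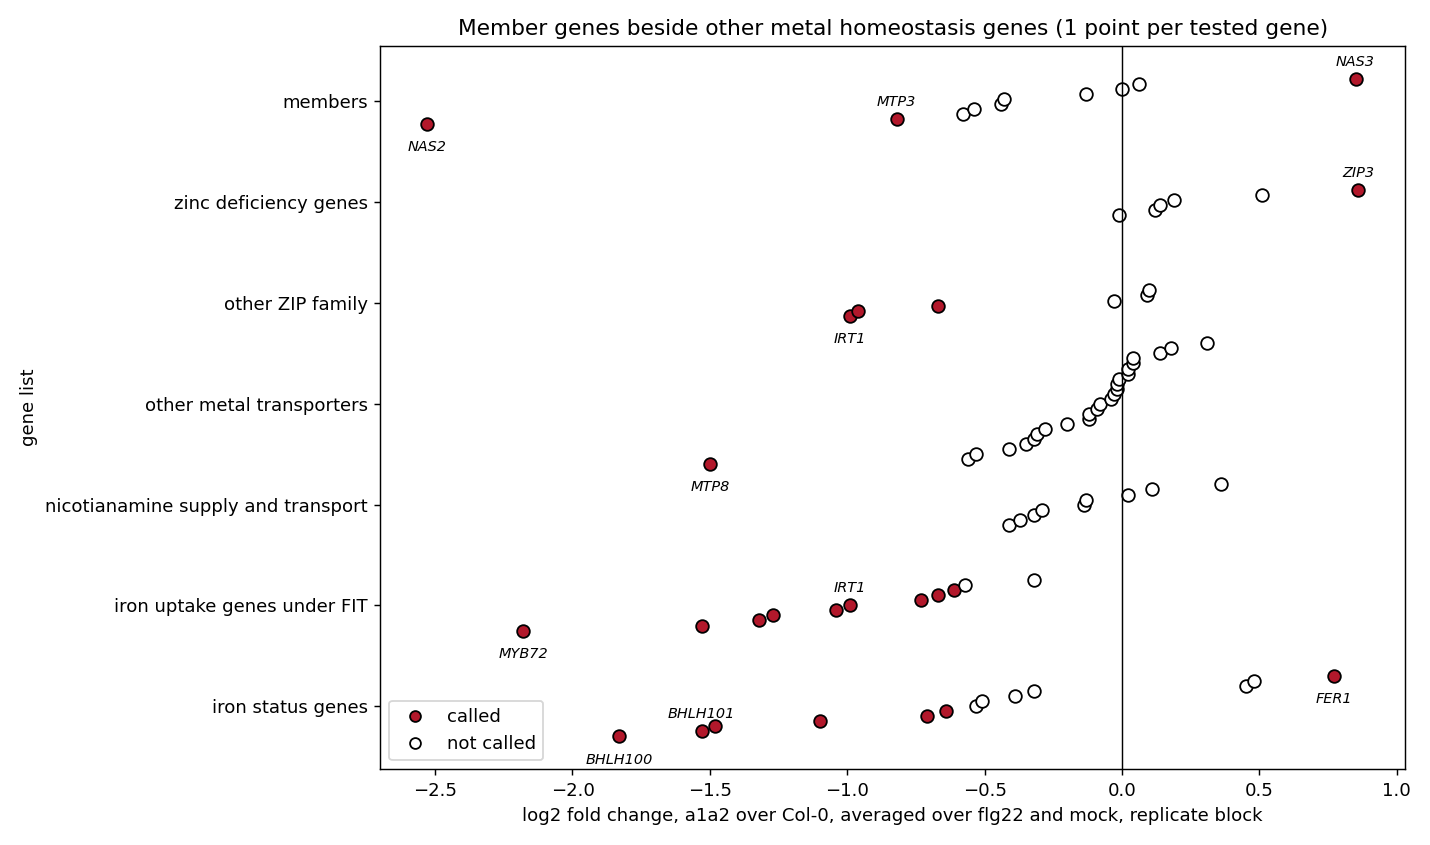
Log2 fold change of a1a2 over Col-0, averaged over both treatments in the fit with the replicate block, for each tested gene (point) of 7 gene lists (rows), with red points for called genes. The 11 iron uptake genes under FIT all lie below 0, while the 10 genes described here spread from -2.53 (NAS2) to 0.85 (NAS3).

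For each of the 10 genes, the tested gene with the highest Pearson correlation of log2 CPM over the 12 libraries was sought. These values describe the libraries, which share groups and replicate numbers. MTP3 was closest to BHLH39, a transcription factor gene of the iron deficiency response (r = 0.99), which had 4.07 to 14.3 CPM in a1a2 and 6.87 to 26.5 CPM in Col-0. NAS4 was closest to the nitrate transporter gene NRT1.1 (0.97), NAS1 to the aspartate kinase gene AK3 (0.97), and NAS2 to AGL46 (0.94). NAS3 was closest to AT1G09230 (0.93), a gene with a neighbouring locus number. ZIP9 was closest to AT1G63530 (0.96), IREG2 to AT4G16920 (0.95), ZIP4 to CHR18 (0.93), ZIP1 to SRF8 (0.92) and HMA3 to PAP8 (0.91). Among the 10 genes, the highest value was that of NAS1 and NAS4 (0.97) and the lowest that of NAS3 and IREG2 (-0.78).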

How the data were processed

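RNA-seq libraries were made from polyA RNA of whole seedlings, 3 per group in 4 groups. Gene-level estimated counts, that is, expected counts, were deposited by the authors without library scaling, and 4 columns of group averages beside them were not used. According to the study's methods and the submitters' processing notes, paired-end reads were filtered with SOAPnuke and aligned with HISAT to TAIR10 by the sequencing provider, and DESeq2 was used for testing. The counting tool, the annotation and the use of strand were not given in the sources used here. Estimated counts were rounded. Genes were named, and sequences and coordinates read, from RefSeq build TAIR10.1. The filterByExpr function of edgeR 4.0.16 (R 4.3.3) kept 20439 of 23739 genes, with 99.97% of the counts.

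Quasi-likelihood F-tests (two-sided, Benjamini-Hochberg adjustment) were run on all 12 libraries, with 4 group means. Contrasts were genotype within each treatment and averaged over both (a1a2 over Col-0), flg22 against mock in each genotype, and the interaction. These contrasts share libraries. The SE of an edgeR fold change was derived from the test, as the absolute log2 fold change divided by the square root of F. Log2 CPM for correlations and pairwise ratios had a prior count of 2. Deviations of libraries from their group means correlated at 0.22 to 0.66 for the 18 pairs with the same replicate number and at -0.55 to 0.15 for the 36 other pairs. All same-number pairs exceeded 0.1, so the numbers, which the labels give, were treated as pairing the samples, and the fit with the replicate block is given beside the fit without it. P-values measure the spread between these biological replicates only. The statistical code was tested on simulated data with no replicate effect and with changes set in a1a2 mock only. That test therefore cannot decide between the fits with and without the block. Alternatives were RLE size factors, library size only, no filter, DESeq2 1.42.0, the replicate block, only the 6 libraries of a comparison, no fold threshold, and leaving out each library. Leaving out a replicate number in all groups was chosen after seeing the data. The genes, the lists and the rule for named genes (all 10 genes, listed genes called in a comparison of 2 groups, set regulators, and the most similar gene of each) were chosen with earlier results of these data known.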

Additional observations from a re-analysis of the deposited data

How the results depend on the processing

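With the replicate block, the number of the 10 genes called became 2 in mock and 1 after flg22 for a1a2 against Col-0 (0 in both without it), 3 averaged over treatments (against 1), and 4 in each genotype for flg22 against mock (against 2 in a1a2 and 1 in Col-0). The replicate block changed no call of the interaction. DESeq2 gave 1, 1 and 2 for the 3 genotype comparisons, and DESeq2 with replicate block gave 3, 1 and 3, and 4 in each genotype for flg22. Without the block, DESeq2 called 2 for flg22 in a1a2 and 1 in Col-0. Over all genes, that fit called 2887 higher and 1658 lower after flg22 in a1a2, and 2848 higher and 1661 lower in Col-0. The counts over all genes for the genotype comparisons are given below. With only the 6 libraries of the comparison, 1 gene was called for flg22 in a1a2, since NAS3 stood at an adjusted p of 0.05. Without the block, leaving out libraries gave 0 genes in mock, 0 to 1 after flg22 and 0 to 2 averaged. For flg22 against mock these fits gave 0 to 2 in a1a2 and 0 to 1 in Col-0. With the block, leaving out 1 replicate number gave 1 in mock, 0 to 1 after flg22 and 1 to 3 averaged. For flg22 against mock, those fits gave 4 in a1a2 and 2 to 4 in Col-0.

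Over all genes, DEGs for a1a2 against Col-0 numbered 34 in mock, with 103 by DESeq2, 196 with the block, 323 by DESeq2 with the block, 12 with only 6 libraries, and 2 to 322 without libraries. After flg22 there were 28, and 82, 169 and 275 in these fits, with 3 to 248 without libraries. Averaged, there were 94, and 236, 463 and 505, with 11 to 614. The flg22 response gave 4326 in a1a2 (2522 to 4877 without libraries) and 4287 in Col-0 (2494 to 5590). The lowest counts of each comparison, 2, 3, 11, 2522 and 2494, all came without replicate 2 in any group. The interaction gave 0, and 4 by DESeq2 with the block. Scaling to library size only shifted the median log2 change of all genes after flg22 to -0.26 in both genotypes, and the share of DEGs that rose to 39.8% in a1a2 and 40.1% in Col-0, against 65.5% and 66.3%. The calls of ZIP9 and NAS3 stood under this scaling.

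Direction changed only for log2 changes that were not called. Under library size only, NAS2 in Col-0 after flg22 was -0.16, MTP3 in a1a2 -0.20, IREG2 -0.14 in a1a2 and -0.23 in Col-0, and ZIP4 averaged over treatments -0.01. IREG2 in Col-0 was -0.01 by RLE and by DESeq2, and MTP3 in a1a2 -0.01 with 6 libraries. The ranges that follow are from fits without libraries, with and without the block. In a1a2, flg22 against mock ranged from -0.46 to 0.48 for MTP3, -0.17 to 0.25 for IREG2 and -0.87 to 0.19 for HMA3. In Col-0 it ranged from -0.10 to 0.29 for NAS2, -0.54 to 0.09 for MTP3, -0.25 to 0.18 for IREG2, -0.36 to 0.22 for HMA3 and -0.44 to 0.08 for ZIP4. For a1a2 against Col-0 the ranges in mock were -0.95 to 0.22 for NAS4, -0.04 to 0.22 for ZIP1, -0.10 to 0.25 for ZIP4 and -0.44 to 0.24 for ZIP9. After flg22 they were -0.17 to 0.27 for ZIP1, -0.35 to 0.19 for ZIP4 and -0.45 to 0.12 for ZIP9, and averaged -0.05 to 0.14 for ZIP1, -0.13 to 0.14 for ZIP4 and -0.36 to 0.12 for ZIP9. The cause of these changes was not tested beyond the construction of each fit. Depth limits NAS2, with 3 to 29 counts per a1a2 library, HMA3, with 13 to 53 counts per library, and ZIP9, with 15 to 38 counts per mock library.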

Other observations

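Of 25 other metal transporter genes that were tested, 2 were called after flg22 in each genotype without the block, both higher, beside 21.2% of all tested genes in a1a2 and 21.0% in Col-0 (13.9% higher in each). PCR2, whose product is known to export zinc, had 267 to 420 CPM in a1a2 flg22, against 28.8 to 31.7 CPM in a1a2 mock, and 287 to 530 CPM in Col-0 flg22, against 45.7 to 67.7 CPM in Col-0 mock. It rose by 3.53 ± 0.25 in a1a2 (SE, adjusted p 9.31e-07) and by 2.81 ± 0.25 in Col-0 (SE, adjusted p 5.10e-06) on the log2 scale. CAX2, a vacuolar cation exchanger gene, rose by 0.79 in a1a2 (adjusted p 6.78e-05) and by 0.71 in Col-0 (adjusted p 0.000156), but stood at 0.53 and 0.46, under the 1.5-fold threshold, when scaled to library size only. The median log2 fold change of the 25 genes was 0.08 in each genotype. With the block, 3 of the 25 genes were called higher and 1 lower after flg22 in a1a2, beside 15.5% and 9.37% of all tested genes. The lower gene was NRAMP3, a gene for the release of iron from the vacuole (-0.66, adjusted p 0.0181). VTL1, a vacuolar iron transporter-like gene, was among the higher genes (0.88, adjusted p 0.0248).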
